A study of Mus musculus with 11 samples.

Results

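The 50 genes described here encode the machinery that copies DNA: the factors that license origins, the replicative helicase, the polymerases, the sliding clamp and its loader, and enzymes that join fragments and supply nucleotides. They were chosen by name and known function, with earlier results of these data known. All 50 were found among the 21887 protein-coding genes on chromosomes 1 to 19, X and Y of the mouse gene table. The question put to the data was in which mouse stomach gland libraries these genes carried an acetylated or methylated promoter. H3K27ac, acetylation of lysine 27 of histone H3, was profiled in 2 libraries of each of 4 genotypes. These were wild type; Atp4bCre; Rosa26NICD (called NICD here); Atp4bCre; Rosa26NICD; Arid1aflox/+ (1-allele, 1 floxed Arid1a allele); and Atp4bCre; Rosa26NICD; Arid1aflox/flox (2-allele). H3K4me3, trimethylation of lysine 4, was profiled in 1 library each of wild-type, NICD and Arid1a-floxed NICD glands; the title and the genotype of the last library disagree on the number of floxed alleles, so it is called Arid1a-floxed. Rosa26NICD supplies the active intracellular part of Notch, Atp4bCre places Cre under a gene of acid-secreting parietal cells, and Arid1a encodes a subunit of the SWI/SNF chromatin remodelling complex. Wild-type glands carried neither transgene, and all Arid1a-floxed glands also carried both. Epithelial pellets were pooled, and nothing in the labels says that libraries of a group came from separate animals, so the spread between libraries may be technical.

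Replication origins are licensed when the origin recognition complex, Cdc6 and Cdt1 load the MCM helicase onto DNA, and they fire when Cdc7-Dbf4 kinase together with Cdc45 and the GINS complex turns that helicase on. Polymerase alpha with primase then starts each strand, polymerases delta and epsilon extend it, and the PCNA clamp, loaded by replication factor C, holds them on the template. In the stomach, dividing progenitors lie in the isthmus of the gland while mature parietal cells do not divide, and many replication genes are transcribed under E2F factors. H3K27ac marks active promoters and enhancers, and H3K4me3 marks promoters. Both are bulk measurements here, so fewer cells of a type and less mark per cell cannot be told apart.

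The promoters of 6 genes are shown because the results below turn on them: Mcm3, Pola1, Rfc5 and Rpa2 carried H3K27ac in both NICD libraries and neither wild-type library, and Rfc3 and Rpa3 carried it in all 8 libraries. Sequences are from RefSeq (GRCm38.p6), 250 bases before to 30 bases after the annotated start, in the direction of transcription. Capitals mark the letters TTTGGCGC or TTTCCCGC (published forms of the E2F site), CCAAT and GGGCGG, on either strand; the last can overlap an E2F match. The regions are chr1:20820283-20820562, minus strand (Mcm3, MCM helicase subunit); chrX:93632126-93632405, minus strand (Pola1, catalytic subunit of polymerase alpha); chr5:117388994-117389273, minus strand (Rfc5, clamp loader subunit); chr4:132768110-132768389, plus strand (Rpa2, single-strand binding subunit); chr5:151651179-151651458, minus strand (Rfc3, clamp loader subunit); and chr6:8259112-8259391, minus strand (Rpa3, single-strand binding subunit).
Mcm3: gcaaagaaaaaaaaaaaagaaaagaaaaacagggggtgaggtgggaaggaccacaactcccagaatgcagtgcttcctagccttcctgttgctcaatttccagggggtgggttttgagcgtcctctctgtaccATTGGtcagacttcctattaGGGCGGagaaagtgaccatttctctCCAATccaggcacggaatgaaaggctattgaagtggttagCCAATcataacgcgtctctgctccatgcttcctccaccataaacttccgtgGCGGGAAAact
Pola1: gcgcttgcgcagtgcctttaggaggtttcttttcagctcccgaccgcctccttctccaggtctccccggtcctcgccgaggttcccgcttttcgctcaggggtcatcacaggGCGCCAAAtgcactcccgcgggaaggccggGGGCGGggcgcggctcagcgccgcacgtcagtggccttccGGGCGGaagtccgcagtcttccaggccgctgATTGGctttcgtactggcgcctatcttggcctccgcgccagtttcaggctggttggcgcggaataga
Rfc5: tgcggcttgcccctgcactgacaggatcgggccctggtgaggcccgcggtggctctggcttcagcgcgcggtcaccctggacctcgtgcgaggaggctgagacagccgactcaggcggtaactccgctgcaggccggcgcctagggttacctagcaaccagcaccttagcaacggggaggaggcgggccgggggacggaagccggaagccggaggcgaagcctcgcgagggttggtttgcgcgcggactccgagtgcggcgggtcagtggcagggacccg
Rpa2: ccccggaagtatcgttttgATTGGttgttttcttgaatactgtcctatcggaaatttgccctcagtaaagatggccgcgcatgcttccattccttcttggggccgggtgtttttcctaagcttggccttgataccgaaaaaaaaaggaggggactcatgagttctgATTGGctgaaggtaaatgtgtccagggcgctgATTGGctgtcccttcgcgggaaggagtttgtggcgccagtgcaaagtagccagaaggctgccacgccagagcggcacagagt
Rfc3: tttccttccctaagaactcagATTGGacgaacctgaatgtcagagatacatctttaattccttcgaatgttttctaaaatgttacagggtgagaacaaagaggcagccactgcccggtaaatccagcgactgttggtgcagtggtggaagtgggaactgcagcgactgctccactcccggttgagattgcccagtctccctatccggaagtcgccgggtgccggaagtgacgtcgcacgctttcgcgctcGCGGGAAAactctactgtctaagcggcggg
Rpa3: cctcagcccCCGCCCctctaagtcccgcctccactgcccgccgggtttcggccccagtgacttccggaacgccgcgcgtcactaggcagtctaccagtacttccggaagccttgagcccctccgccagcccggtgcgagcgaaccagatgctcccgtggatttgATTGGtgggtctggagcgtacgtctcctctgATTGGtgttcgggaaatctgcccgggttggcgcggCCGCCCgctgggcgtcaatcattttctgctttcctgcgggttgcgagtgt

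Counting the first transcribed base as 0, GCGGGAAA began at base 19 of Mcm3 and at base 0 of Rfc3, and GCGCCAAA began at base -138 of Pola1. Rfc5 held none of the letters searched in the stretch shown. Rpa2 held ATTGG, the other strand of CCAAT, 3 times. The 300-base promoter table (250 before, 50 after the start) held 42 of the 50 genes, and Gins1, Gins2, Gins4, Rfc2, Gmnn, Mcm4, Pole and Prim2 had no entry. TTTGGCGC or TTTCCCGC, on either strand, lay in 15 of the 42, or 35.7%, against 2.01% of 17450 other promoters. The 15 were Mcm3, Mcm5, Mcm6, Mcm7, Mcm8, Gins3, Orc3, Cdc6, Cdt1, Pola1, Pold1, Pold3, Pole2, Pole4 and Rfc3. CCAAT lay in 54.8% of the 42 against 39.0% of the others, GGGCGG in 73.8% against 46.3%, and TTTGAA, a cell cycle element, in 14.3% against 16.5%. The replication promoters had a median GC content of 61.8% against 56.3%, and a median of 24 CpG dinucleotides against 13, so GC-rich letters have more chances to match in them. A match is a description of the sequence, not a bound site.

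A gene was counted as called in a library when a deposited peak overlapped, by at least 1 bp, the 1 kb on each side of either gene end. The H3K27ac lists ran from 5165 and 7602 peaks in the 1-allele libraries, through 14373 and 15362 in the 2-allele and 18360 and 20590 in the wild-type libraries, to 25442 and 41405 in the NICD libraries. The H3K4me3 lists held 17558 (wild type), 39420 (NICD) and 5175 (Arid1a-floxed) peaks. Depth after duplicate removal ranged from 7.96 to 20.81 M tags over the 9 libraries whose headers give it; NICD replicate 2 had the fewest and the highest redundant rate, 0.52. The 2-allele lists give neither depth nor peak scores, so a difference in how they were called and the 2-allele genotype cannot be told apart. Of 6 gland epithelium markers, 5 and 5 were called in wild type, 6 and 5 in NICD, 2 and 1 in 1-allele and 4 and 4 in 2-allele glands. Epcam, an epithelial adhesion gene, was called in all 8 H3K27ac libraries, while Krt8, Krt18 and Cdh1 were called in neither 1-allele library. Of 6 parietal markers, 3 and 2 were called in the wild-type libraries, Atp4b alone in 1-allele replicate 1 and none in the other 5; Atp4b was called in both wild-type libraries.

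In wild-type glands H3K27ac was called at 23 and 28 of the 50 replication genes in replicates 1 and 2, where 43.1% and 40.9% of the 21837 other protein-coding genes were called. In NICD glands it was called at 43 and 37, against 52.9% and 47.2% of other genes. In the 1-allele glands the counts were 4 and 12, against 16.1% and 25.8%. The lowest NICD count therefore lay above the highest wild-type count, and both 1-allele counts lay below every count of the other groups. The shares of other genes were ordered in the same way, so this order was not particular to the replication genes. In the 2-allele glands 33 and 34 were called, against 42.5% and 41.1% of other genes. The log2 odds of a call at a replication gene relative to other genes was 0.52 ± 0.49 in wild type, 2.0 ± 0.52 in NICD, -0.54 ± 0.63 in 1-allele and 1.48 ± 0.15 in 2-allele glands (mean ± SD, n = 2 libraries each, 0.5 added to each count). With the full lists, these genes were thus called more often than other genes in NICD and 2-allele glands, and no more often in the 1-allele glands. H3K4me3 was called at 42 of the 50 in wild type, 47 in NICD and 12 in Arid1a-floxed glands, against 47.3%, 63.5% and 19.5% of other genes.

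**Figure D1:**
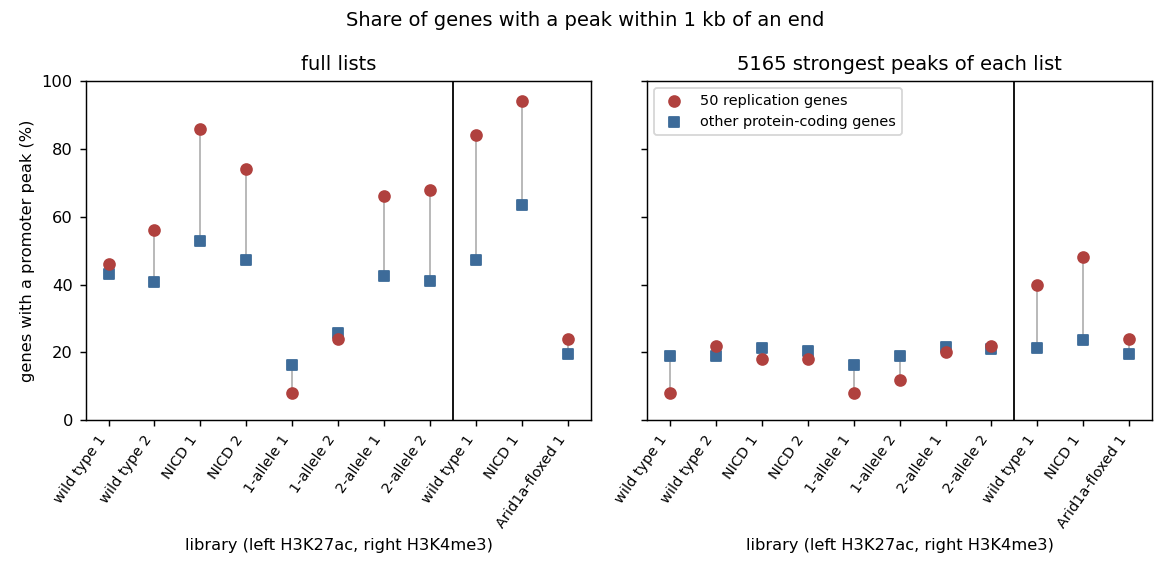
Percent of genes with a promoter peak (vertical axis) in each of the 11 libraries (horizontal axis; H3K27ac left and H3K4me3 right of the black line in each panel). Red circles are the 50 replication genes and blue squares the 21837 other protein-coding genes. Full lists are on the left and the 5165 strongest peaks of every list on the right. The 2-allele lists have no scores, so their first 5165 peaks by place in the file were taken. With full lists the red circles stand well above the blue squares in NICD and 2-allele glands. At equal length the H3K27ac circles lie near or below the squares, while the wild-type and NICD H3K4me3 circles stay above.

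List length moved with the genotype, and at 5165 peaks the H3K27ac counts of the 4 genotypes lay closer together than in the full lists. The 2-allele lists, which have no scores, were ranked by place in the file, so strength is assumed for them. Among the 5165 strongest peaks of each list, 4 and 11 replication genes were called in wild type and 9 and 9 in NICD. In 1-allele glands 4 and 6 were called and in 2-allele glands 10 and 11. Other genes were called at 16.1% to 21.6%. The log2 odds were then -0.48 ± 1.13, -0.19 ± 0.05, -0.83 ± 0.23 and 0.01 ± 0.15 in that order (n = 2 each). Both 1-allele counts stayed below those of NICD and 2-allele glands, as did the 1-allele shares of other genes, 16.1% and 18.9%. At 14373 peaks, which the 1-allele lists do not reach, 20 and 22 were called in wild type, 29 and 26 in NICD, and 32 and 34 in 2-allele glands. Other genes were called there at a mean of 37.1%, 40.9% and 41.3% in that order. The log2 odds were 0.304 ± 0.183, 0.814 ± 0.164 and 1.446 ± 0.194 (n = 2 each). At 18360 peaks, 22 and 28 were called in wild type and 32 and 30 in NICD. Other genes were called at a mean of 41.2% and 44.3%, and the log2 odds were 0.515 ± 0.508 and 1.025 ± 0.091. The NICD counts thus stayed above the wild-type counts at the longer lengths, by a smaller margin than in the full lists. The share of other genes was also higher in NICD, and the mean log2 odds stayed higher there too. H3K4me3 differed from H3K27ac at 5165 peaks, with calls at 20 (wild type), 24 (NICD) and 12 (Arid1a-floxed) of the 50. The shares of other genes were 21.4%, 23.6% and 19.4%.

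Many replication promoters without an H3K27ac call in wild type did carry H3K4me3. Of the 50 genes, 42 had H3K4me3 in both the wild-type and the NICD library, as did 10312 other genes. Within those sets, H3K27ac was called in wild type at 54.8% and 66.7% of replication genes against 85.1% and 81.2% of other genes. In NICD the shares were 92.9% and 85.7% against 95.8% and 90.7%, in 1-allele glands 9.52% and 28.6% against 33.5% and 53.2%, and in 2-allele glands 78.6% and 81.0% against 84.9% and 82.3%. Against genes with an H3K4me3-marked promoter, then, the share of replication genes with H3K27ac was the lower one in each of the 8 libraries, with no test of the difference. The gap in percentage points was widest in wild-type replicate 1 and was less than 1 gene in 2-allele replicate 2. The log2 odds on this scale were -1.69 ± 0.78, -0.91 ± 0.17, -1.79 ± 0.45 and -0.43 ± 0.33 in wild type, NICD, 1-allele and 2-allele glands (n = 2 each). The comparison group sets the sign in wild type, NICD and 2-allele glands, since against all genes the log2 odds were above 0.

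The NICD glands were set against wild type to show what Atp4bCre and Rosa26NICD together go with. No group carried Cre alone, so Cre and active Notch cannot be told apart here. There were 6 replication genes called in both NICD libraries and neither wild-type library, against 3.83% of all protein-coding genes, and 0 showed the opposite pattern (background 0.114%). They were Mcm3, Pola1, Pola2 and Prim2 (the accessory subunit of polymerase alpha and the large subunit of primase), Rfc5 and Rpa2, so 3 of the 6 belong to the complex that primes each strand. Fold enrichment over the local background of its own library, as deposited, was 5.58 and 5.83 for Mcm3 in NICD replicates 1 and 2. It was 7.82 and 9.83 for Rfc5, the highest of the 6 in replicate 2. Rfc5 was also the only one of the 6 above the median of its list in both NICD libraries, at percentiles 68.3 and 84.2 (100 is the strongest peak). For Pola1 the fold was 6.51 and 4.82, and for Pola2 4.38 and 3.96. Prim2 had 8.67 and 4.70, and Rpa2 8.42 and 4.90. These 4 lay at percentiles of 4.25 to 16.4 in replicate 2, so their calls there rested on some of the weakest peaks of that list.

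The count for this comparison rested on list length and on single libraries. It was 0 at 5165 peaks, 3 at 14373 peaks (Mcm6, Mcm8, Rfc5) and 1 at 18360 peaks (Rfc5), where the background was 1.90%, 2.38% and 2.04%. The opposite pattern was at 0 genes at the first 2 lengths (background 1.01% and 0.589%). At a fold of 5 or more, 7 genes were on the NICD side, Mcm3, Mcm6, Mcm8, Gins3, Pold2, Rfc2 and Rfc5 (background 6.34%). Only 2 of the 6 were among them. Pola1, Pola2 and Prim2 were on the NICD side at none of these settings. With the full lists, the count on the NICD side was 14 without wild-type replicate 2 and 12 without NICD replicate 2. The shares of all genes there were 5.94% and 7.88%. With 2 libraries against 2, the two-sided exact permutation test cannot go below 0.333. Over all 4 groups the exact permutation test of a 0/1 call cannot go below 0.0857 with 2 libraries a group. Genes of this set reached that value, and the adjusted p was 1 at every gene. No gene could pass 0.05, so the test cannot decide whether calls differ between groups. Every count below is a description.

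**Figure D2:**
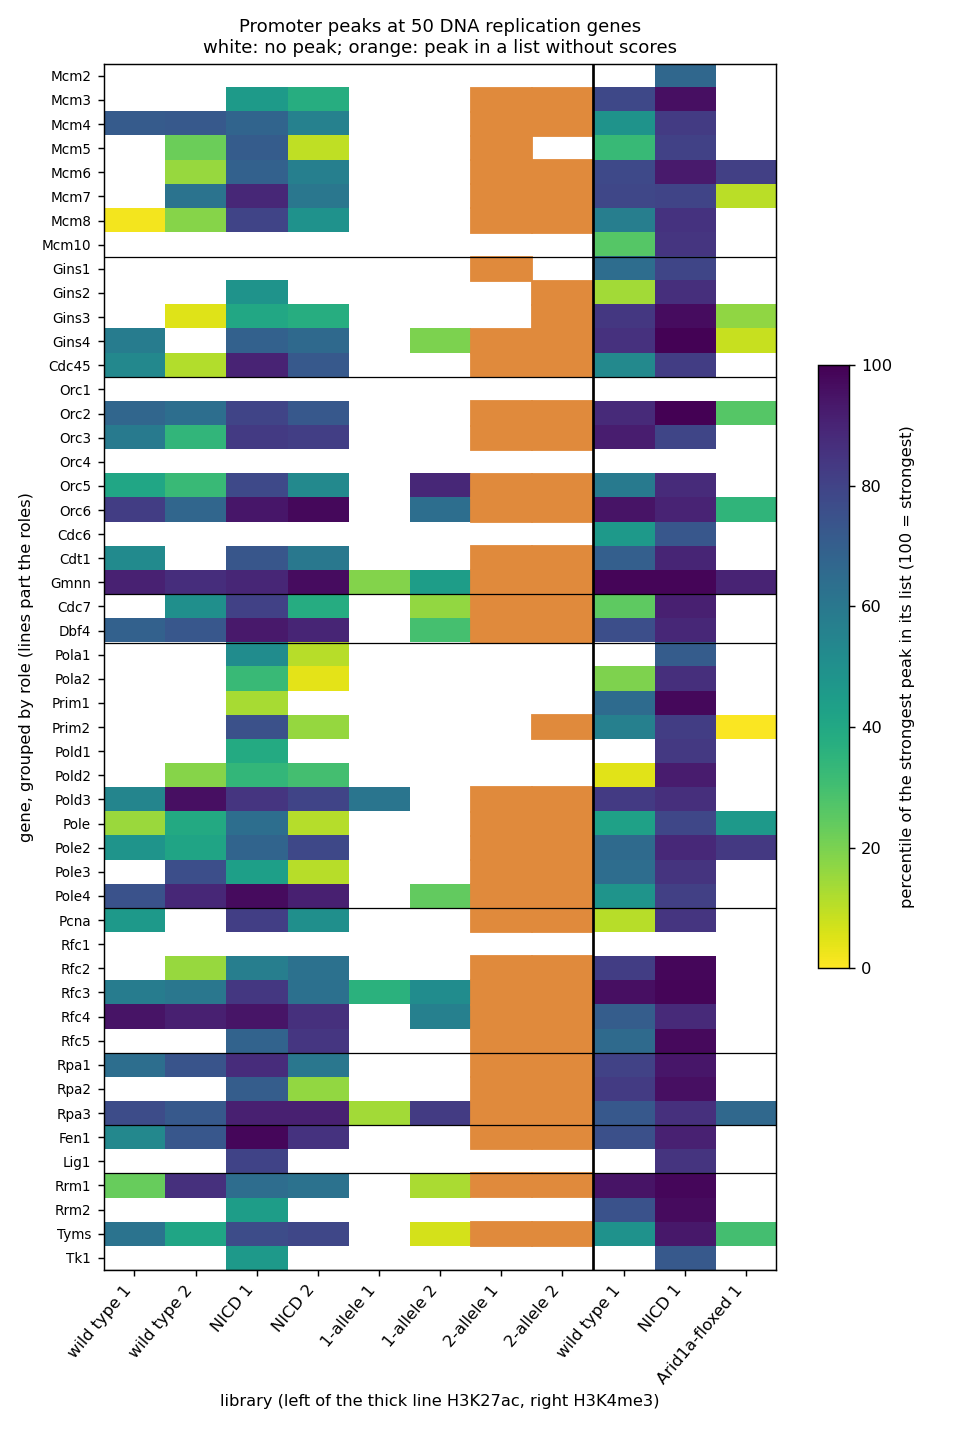
Promoter peaks of the 50 replication genes (rows, parted by role) in the 11 libraries (columns; H3K27ac left and H3K4me3 right of the thick line). Colour gives the percentile of the gene's strongest peak within its own list, white means no peak, and orange marks a peak in a 2-allele list, which has no scores. The 1-allele columns are nearly empty, and Gmnn, Rfc3 and Rpa3 are filled in all 8 H3K27ac columns.

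The 1-allele glands, compared with NICD glands to show what 1 floxed Arid1a allele goes with, lacked calls at helicase, licensing, polymerase, clamp and fragment-processing genes. Of the 50 genes, 24 were called in both NICD libraries and neither 1-allele library, against 18.8% of all genes, which is 64.9% of the 37 with calls in both NICD libraries against 40.1% of all 10257 such genes. Of the 50 genes, 0 showed the opposite (0.00914%). Among the MCM, GINS and Cdc45 genes the 24 included Mcm3, Mcm4, Mcm5, Mcm6, Mcm7, Mcm8, Gins3 and Cdc45, and among licensing factors Orc2, Orc3 and Cdt1. Polymerase subunits gave Pola1, Pola2, Prim2, Pold2, Pole, Pole2 and Pole3, and the clamp, its loader and the processing factors gave Pcna, Rfc2, Rfc5, Rpa1, Rpa2 and Fen1. In NICD replicate 1 their fold enrichment ran from 4.38 (Pola2) to 12.5 (Fen1, the flap nuclease of lagging-strand synthesis) with a median of 7.75, and in replicate 2 from 3.96 (Pola2) to 9.83 (Rfc5) with a median of 5.97. The list therefore includes strong NICD peaks as well as weak ones. At 5165 peaks 3 remained on the NICD side, Dbf4, Pole4 and Fen1 (background 2.39%), and Rfc3 was on the other side (0.758%); of the 24, only Fen1 was among these. Of the 15 genes with TTTGGCGC or TTTCCCGC in the promoter 10 were among the 24, and of the 27 with neither 10 were. Mcm4, Prim2, Pole and Rfc2, also among the 24, had no promoter entry. These shares were not computed over all promoters, and a link between the letters and the calls was not tested. Against wild type, 9 genes had calls in the wild-type pair and none in the 1-allele pair (Mcm4, Mcm8, Cdc45, Orc2, Orc3, Pole, Pole2, Rpa1 and Fen1), against 11.1% of all genes.

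The 2-allele glands kept most of the calls seen in NICD, to about the same share as other genes. Calls in both 2-allele libraries were found at 31 of the 37 genes that had calls in both NICD libraries, or 83.8%, against 82.0% of all 10257 genes called in both NICD libraries. Pola1, Pola2 and Pold2, the accessory subunit of polymerase delta, were called in both NICD libraries and neither 2-allele library, against 3.80% of all genes, and 0 showed the opposite (0.0228%). All 3 had weak NICD peaks, at mean percentiles of 31.1, 18.3 and 31.9 over the 2 NICD lists. At 14373 peaks no gene was on the NICD side (0.777%) and Pole and Pole3, subunits of polymerase epsilon, were called in both 2-allele libraries and neither NICD library (0.841%). At 5165 peaks no gene was on the NICD side either (1.18%) and Pold3 and Rfc3 were on the 2-allele side (1.36%). The count of 3 was 8 without NICD replicate 2 and 5 without 2-allele replicate 2, where the shares of all genes were 8.50% and 5.51%, and in the latter case 1 gene was on the other side.

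Directly between the floxed genotypes, 18 genes were called in both 2-allele libraries and neither 1-allele library, against 12.0% of all genes, and 0 the other way (0.0411%). They were Mcm3, Mcm4, Mcm6, Mcm7, Mcm8, Cdc45, Orc2, Orc3, Cdt1, Pole, Pole2, Pole3, Pcna, Rfc2, Rfc5, Rpa1, Rpa2 and Fen1. Each of the 18 was also among the 24 called in NICD and not in 1-allele glands. The 1-allele libraries enter both comparisons, so the overlap is no independent result. At 5165 peaks the count was 2, Dbf4 and Pole4 (2.82%), and 0 the other way (0.749%). Against wild type, Mcm3, Rfc5 and Rpa2 were called in both 2-allele and neither wild-type library, against 1.29% of all genes, and 0 showed the opposite (1.41%).

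Taking the roles in order, of the 8 genes with MCM names 2 and 5 were called for H3K27ac in wild type and 6 and 6 in NICD. In 1-allele glands 0 and 0 were called, and in 2-allele glands 6 and 5. Mcm4 and Mcm8 were called in both libraries of wild type, NICD and 2-allele glands; Mcm4 had folds of 7.31 and 7.03 in wild type and 6.74 and 6.30 in NICD. Mcm6 and Mcm7 were called in wild-type replicate 2 only, with folds of 4.34 and 6.05, and in both NICD libraries, with 6.57 and 6.16 for Mcm6 and 10.25 and 6.10 for Mcm7. Mcm5 was called in wild-type replicate 2, both NICD libraries and 2-allele replicate 1. Mcm2, a core subunit of the helicase, and Mcm10, which helps activate it, had no H3K27ac call in any library. Both nevertheless had H3K4me3, Mcm10 in wild type and NICD (folds 4.71 and 13.5) and Mcm2 in NICD only (4.73).

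Among the helicase activators, Cdc45 was called in both libraries of wild type (5.53 and 4.14), NICD (11.1 and 7.5) and 2-allele glands. Of the GINS subunits, Gins4 was called in 6 libraries, 1-allele replicate 2 among them, Gins3 in 4, Gins2 in 2 and Gins1 in 2-allele replicate 1 alone. All 4 GINS genes carried H3K4me3 in wild type and in NICD. Of the kinase that fires origins, Dbf4, the activating subunit, was called in all libraries but 1-allele replicate 1 and Cdc7, the catalytic subunit, in 6 libraries.

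Origin recognition and licensing genes (9) were called at 6 and 5 genes in wild type, 6 and 6 in NICD, 1 and 3 in 1-allele and 6 and 6 in 2-allele glands, so this was a role in which wild type and NICD hardly differed. Gmnn encodes geminin, the inhibitor of Cdt1. It was called in all 8 libraries, with folds of 8.30 and 7.59 in wild type, 8.28 and 10.24 in NICD, and 4.44 and 4.86 in 1-allele glands. Orc6, the smallest subunit of the origin recognition complex, had the highest mean percentile over the NICD lists, 96.0, and was called in every library but 1-allele replicate 1. Orc2 and Orc3, 2 further subunits, and Cdt1, the MCM loading factor, were missing from both 1-allele lists. Cdc6 had H3K4me3 in wild type and NICD (5.34 and 8.99) and no H3K27ac call.

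Polymerase and primase genes (11) were the role in which NICD stood furthest from wild type in number of calls, with 4 and 6 in wild type, 11 and 9 in NICD, 1 and 1 in 1-allele and 5 and 6 in 2-allele glands. Pole4, a histone-fold subunit of polymerase epsilon, had one of the strongest NICD peaks (13.4 and 10.1, mean percentile 94.2) and a fold of 4.77 in 1-allele replicate 2. Pold3, a polymerase delta subunit, was the only one of the 11 called in 1-allele replicate 1. Pole, the catalytic subunit of polymerase epsilon, and Pole3 were among the 5 weakest of the genes called in both NICD libraries, at mean percentiles of 37.5 and 27.2. Prim1, the catalytic subunit of primase, and Pold1, the catalytic subunit of polymerase delta, were called in NICD replicate 1 only.

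The clamp and its loader (6 genes) were called at 3 and 3 genes in wild type, 5 and 5 in NICD, 1 and 2 in 1-allele and 5 and 5 in 2-allele glands. Rfc3 was called in all 8 libraries, with folds of 6.34 and 6.15 in wild type, 10.1 and 7.41 in NICD and 5.26 and 6.19 in 1-allele glands. Pcna itself was called in wild-type replicate 1 (5.64), both NICD libraries (8.27 and 5.74) and both 2-allele libraries. Of the single-strand binding genes, Rpa3 was called in all 8 libraries, with folds of 7.09 and 6.76 in wild type, 10.6 and 9.59 in NICD and 4.58 and 7.54 in 1-allele glands. Gmnn, Rfc3 and Rpa3 were the only 3 genes called throughout, or 6% of the set against 13.4% of all protein-coding genes. Fen1 was called in both libraries of wild type (5.32 and 6.41), NICD (12.5 and 7.91) and 2-allele glands. Of the nucleotide supply genes, Rrm1 (ribonucleotide reductase) and Tyms (thymidylate synthase) were called in 7 libraries each, while Rrm2, the partner of Rrm1, and Tk1 (thymidine kinase) were called in NICD replicate 1 alone.

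Mcm2, Mcm10, Orc1, Orc4, Cdc6 and Rfc1, had no H3K27ac call in any library, or 12% of the set against 45.5% of all genes. For Orc1, Orc4 and Rfc1, however, the annotated start of the promoter table lies 3749, 2668 and 2978 bp from the end in the gene table, outside the window. Measured from annotated starts, a choice made after these genes were seen without a call, Orc4 was called in all 8 H3K27ac libraries, with folds of 8.26 and 6.18 in wild type and 5.85 and 5.83 in 1-allele glands. Rfc1 was called in both libraries of wild type (5.66 and 5.12), NICD (9.15 and 6.91) and 2-allele glands and in neither 1-allele library. Orc1, the ATPase of the origin recognition complex, was called in NICD (6.25 and 5.16) and 2-allele glands only. Lig1, the ligase that seals nicks, was called from its annotated starts in both libraries of wild type, NICD and 2-allele glands, and in 1 NICD library with the gene ends. With annotated starts 7 genes were called in NICD and not wild type, adding Orc1, 27 were called in NICD and not 1-allele glands, and 21 in 2-allele and not 1-allele glands, against 3.80%, 19.1% and 12.2% of all genes. Mcm2, Mcm10 and Cdc6 stayed without an H3K27ac call. H3K4me3 was called from annotated starts at 46 of the 50 in wild type, 50 in NICD and 14 in Arid1a-floxed glands. The shares of other genes were 49.8%, 65.2% and 20.7%.

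Within each H3K27ac list the replication genes sat at weaker peaks, by the median, than other called genes. Their median percentiles were 58.1 and 61.1 in wild type against 70.6 and 69.3 for other genes, 73.4 and 60.2 in NICD against 83.8 and 75.6, and 27.3 and 37.0 in 1-allele glands against 52.1 and 55.1. The 1-allele medians rest on 4 and 12 called genes, with percentiles of 14.0 to 61.1 and 6.27 to 88.8. These ranges overlapped the lower to upper quartiles of other called genes, 26.7 to 74.8 and 30.0 to 77.1. In the 2-allele lists, ranked by place in the file, the medians of the replication genes were 42.5 and 49.8 against 67.0 and 65.4. H3K4me3 showed no such gap in wild type (67.6 against 67.4) and the opposite in NICD (87.6 against 82.0). In the Arid1a-floxed library the H3K4me3 median was lower for replication genes, 32.2 against 48.2, on 12 called genes. After Orc6 and Pole4, the strongest NICD H3K27ac peaks were those of Gmnn (mean percentile 93.0), Fen1 (91.7) and Dbf4 (91.3). Pola2, Pole3, Pola1, Pold2 and Pole were the 5 weakest. Of the 37 genes called in both NICD libraries, the 24 called in neither 1-allele library had a median of the mean NICD percentile of 62.3 (range 18.3 to 91.7). The 10 called in 1 of the 1-allele libraries had 79.9 and the 3 called in both had 91.3. The medians were thus higher where more 1-allele libraries had a call, but the ranges overlapped: Fen1 (91.7), Orc3 (82.3) and Cdc45 (81.0) had no 1-allele call, while Cdc7 (59.4), Rrm1 (63.2) and Orc5 (65.4) had 1.

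**Figure D3:**
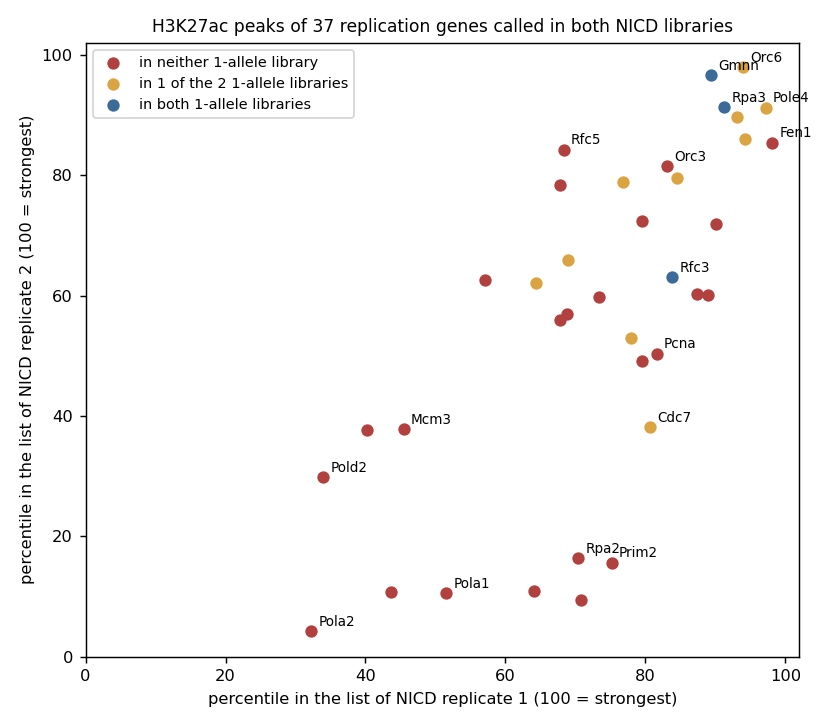
Percentile of the H3K27ac peak of each of the 37 replication genes called in both NICD libraries, in NICD replicate 1 (horizontal axis) and replicate 2 (vertical axis), where 100 is the strongest peak of the list. Colour gives the number of 1-allele libraries in which the gene was called. Red points (neither 1-allele library) spread over the whole range, while blue points (both) lie at 63.0 or higher on both axes.

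H3K4me3 at the replication genes had 1 library a group, so the values are descriptions with no replicate check. With the gene ends, Mcm2, Pola1, Pold1, Lig1 and Tk1 were called in NICD and not wild type, against 16.2% of all genes. The opposite pattern was at 0 genes (0.0731%). From its annotated starts, Lig1 was called in wild type too (fold 6.86). In the Arid1a-floxed library 35 of the 47 genes called in NICD had no call, or 74.5%, against 69.3% of all genes called in NICD. Likewise 30 of the 42 called in wild type had none, or 71.4% against 59.2%. Over all protein-coding genes, called or not, these patterns took 44.1% and 28.0%. No gene was called there and not in NICD (0.00914%) or not in wild type (0.128%). The 12 called there were Gmnn (7.02, percentile 89.9), Mcm6, Mcm7, Gins3, Gins4, Orc2, Orc6, Prim2, Pole, Pole2, Rpa3 and Tyms. In the NICD library the highest folds were those of Prim1 (20.1), Gins4 (19.2), Rfc2 (18.9) and Rfc5 (18.0), and Prim1 stood at percentile 97.8 for H3K4me3 while its single NICD H3K27ac call stood at 13.2. The summed length of H3K4me3 peaks at a called gene had a median of 451 bp in wild type (149 to 909), 1230 bp in NICD (465 to 1892) and 188.5 bp in the Arid1a-floxed library. All 42 genes called in wild type and NICD had the longer peaks in NICD, by a median ratio of 2.82, and so did 99.95% of 10312 other genes, by 2.52. The lengthening was therefore shared with the rest of the genome.

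**Figure D4:**
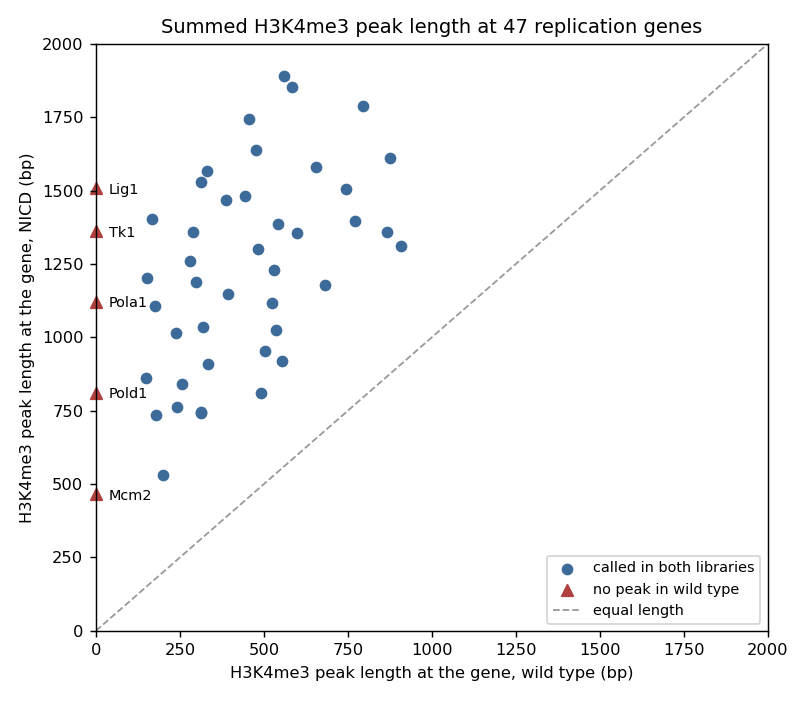
Summed length in bp of H3K4me3 peaks at each of the 47 replication genes called in NICD, in the wild-type library (horizontal axis) and the NICD library (vertical axis). Blue circles are the 42 genes called in both. Red triangles are the 5 with no wild-type peak within 1 kb of a gene end, placed at 0. The dashed line marks equal length. All 42 circles lie above the line.

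Several calls cannot be assigned to the replication gene alone. The starts of 15 of the 50 genes lie within 1 kb of the start of another protein-coding gene, so a peak there counts for both. The closest pairs were Dbf4 with Slc25a40 (5 bp), Orc3 with Rars2 (6 bp), Rpa1 with Smyd4 (21 bp), Mcm4 with Prkdc (44 bp), Mcm8 with Trmt6 (83 bp), Mcm7 with Ap4m1 (90 bp) and Pole with Pxmp2 (97 bp). None of the 6 genes called in NICD and not wild type had such a neighbour. The strongest peak of a called gene lay downstream of the start in 31 of 43 genes in NICD replicate 1, at a median of 175 bp after the start, and in 25 of 37 in NICD replicate 2, at 155 bp. Peaks inside the gene body and outside the end windows were found in 4 and 7 of 49 genes in wild type, 12 and 10 in NICD, 1 and 1 in 1-allele and 7 and 6 in 2-allele glands, against 17.3%, 15.9%, 29.1%, 20.2%, 4.83%, 6.23%, 12.2% and 11.1% of other genes in the same order.

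Counts in 2 related gene sets were as follows, with no test of a difference between sets. Of 41 other replication genes, such as checkpoint mediators, chromatin assembly factors and E2F genes, 26 and 26 were called in wild type, 38 and 33 in NICD, 10 and 12 in 1-allele and 32 and 29 in 2-allele glands. Of these, 6 (Ticrr, Recql4, Dna2, Top2a, Dut and Uhrf1) were called in NICD and not wild type, and 19 in NICD and not 1-allele glands. Of 30 mitosis genes, 15 and 15 were called in wild type, 27 and 22 in NICD, 2 and 5 in 1-allele and 18 and 18 in 2-allele glands. Again 6 were called in NICD and not wild type, and 16 in NICD and not 1-allele glands; for all genes these shares were 3.83% and 18.8%. Calls at genes of other cell types also moved between the groups. Of 6 leukocyte markers 0 and 0 were called in wild type, 1 and 2 in NICD, 0 and 0 in 1-allele and 2 and 0 in 2-allele glands, with Ptprc and Spi1 the genes called. Of 6 fibroblast and muscle markers 1 and 0, 2 and 1, 0 and 0, and 0 and 0 were called in the same order of groups. Of 4 chief cell markers at most 1 was called in an H3K27ac library, of 2 mucous neck markers both were called in NICD replicate 1 and none elsewhere, of 4 pit markers between 0 and 3 were called, and endocrine and endothelial markers were not called. In the H3K4me3 NICD library 5 of 6 fibroblast and muscle, 3 of 6 leukocyte, 4 of 4 pit, 2 of 2 mucous neck, 2 of 4 chief, 2 of 4 endocrine, 1 of 4 endothelial and 3 of 6 parietal markers were called. In wild type these counts were 0 except for 1 parietal marker, and in the Arid1a-floxed library they were also 0 except for 1 parietal marker. The part of these cells in the counts of replication genes was not tested.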

How the data were processed

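Each library is 1 deposited peak list. Per the submitters' processing notes, the authors used Bowtie2 and MACS2 with the GRCm38 (mm10) build. For 9 lists the version was MACS 2.0.10.20131216, run per the file headers on single libraries without a control, with duplicates removed, a q-value threshold of 0.05, a local background of up to 10 kb and a genome size of 2.7 Gb, the human setting. In these deposited lists each peak has a pileup signal, a −log10 p-value and a fold enrichment ratio; they ranked or filtered peaks within 1 list only. The 2-allele lists hold positions only, and place in the file was used as rank: in replicate 1, 1-allele replicate 2 peaks met 95.6% of its first 1000 regions and 8.4% of its last 1000. The protocol names an H3K27ac antibody; which antibody served for H3K4me3 is not stated there. A gene without a peak may still carry the mark, and calls depend on depth.

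Gene ends and promoters were taken from RefSeq tables (GRCm38.p6). Calls used windows of 1 kb round either end, since strand was given for 42 of the 50 genes. A gene separated 2 groups where both libraries of a group, and no library of the other, had a call. Each gene was tested over the 4 H3K27ac groups by a two-sided exact permutation test with Benjamini-Hochberg adjustment over all genes. The work was done in Python 3.11.15 with numpy 2.4.6, pandas 2.3.3 and statsmodels 0.14.6. The promoter calls were checked on peaks planted at known distances from gene ends. Genes named with values were those separating 2 groups, those called in all or no libraries, and the 5 strongest and 5 weakest NICD peaks; other values of members were added by role. The members and lists were chosen with earlier results of these data known. Alternatives covered window, list length, fold enrichment of at least 5, annotated starts, background and left-out libraries.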

Additional observations from a re-analysis of the deposited data

How the results depend on the processing

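Windows of 500 bp and 2.5 kb, gene starts alone, peak centres and annotated starts left the 4 counts of separating genes and the median counts per library within 1.5 times their values; with annotated starts the genes with no H3K27ac call numbered 3 in place of 6. List length did not: at 5165 peaks the count of genes called in NICD and not wild type was 0, that in NICD and not 1-allele glands 3, that in 2-allele and not 1-allele glands 2, and that in NICD and not 2-allele glands 0, with 2 the other way. At 14373 peaks the first was 3 and the last 0, again with 2 the other way, and at 18360 peaks the first was 1. Leaving out 1 library gave 6 to 14 genes for NICD against wild type, 24 to 33 for 1-allele against NICD, 3 to 8 for 2-allele against NICD and 19 to 27 for 2-allele against 1-allele glands, where the shares of all genes reached 7.88%, 30.8%, 8.50% and 23.2%. The median of 30.5 genes called per H3K27ac library was 9 at 5165 peaks and 20 at a fold of 5 or more, and that of 42 per H3K4me3 library was 20 at 5165 peaks. The log2 odds at 5165 peaks were -0.48, -0.19 and 0.014 in wild type, NICD and 2-allele glands. Against genes with H3K4me3 in all 3 libraries they were -3.77, -4.98, -2.84 and -3.23 in wild type, NICD, 1-allele and 2-allele glands, by construction, since the replication genes were not so filtered. With both sides filtered on H3K4me3 in wild type and NICD, chosen after seeing the data, they were -1.69, -0.91, -1.79 and -0.43. Replicate numbers did not pair the libraries (6 correlations of -0.010 to 0.043). With the replicate block the exact permutation test cannot go below 0.167, so 0 genes could pass. The fold filter could not be run for the 2-allele lists, and lists shorter than a given length were left out at that length.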
